A study of Mus musculus with 4 samples.

Results

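The 10 transcription factors described here are those that set and keep the identity of the pancreatic beta cell: Mafa, Nkx6-1, Pdx1, Neurod1, Foxa2, Nkx2-2, Isl1, Rfx6, Pax6 and Myt1. They were taken from the gene count table by gene name, and all 10 were found among its 56748 genes and among the 15665 genes with enough reads to test. RNA was sequenced from pancreatic islets of male C57BL/6J mice aged 6 to 8 weeks, kept for 2 h at 25 mM glucose (2 libraries) or at 2.5 mM glucose (2 libraries). Both groups had spent some hours without glucose beforehand, both received cycloheximide, a blocker of translation, at 100 µg/mL in the last 15 minutes, and each replicate pooled the islets of several mice. Whole islets were used, so the libraries hold RNA of beta, alpha, delta and PP cells and of other cells that came along, and not of sorted beta cells.

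These factors work as a network. Foxa2 opens chromatin at pancreatic and endocrine genes, Pdx1, Nkx6-1 and Nkx2-2 set the beta-cell programme and hold back those of the other islet cells, and Neurod1, Isl1, Pax6 and Mafa act at the insulin promoter and at other genes of the mature beta cell. Rfx6 and Myt1 are best known from the formation of endocrine cells in the embryo, and both continue to be made in adult islets. Nkx6-1 and Mafa mark beta cells among the islet cells of the adult mouse, Pdx1 is made in beta and delta cells, and Neurod1, Isl1, Pax6, Nkx2-2, Rfx6, Myt1 and Foxa2 are also made in other islet cells.

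The largest differences between the glucose levels were in Myt1 and Rfx6, and their promoters are shown for that reason. They run from 250 bases before to 50 bases after an annotated start, 5′ to 3′ on the plus strand, from RefSeq on GRCm38.p6. Promoters were matched for 9 of the 10 genes, all but Mafa, and gave 14 windows. Capitals mark matches, on either strand, to the motifs searched: TAATTA (homeodomain), TGTTTAC (forkhead), CANNTG (the E box of bHLH factors such as Neurod1), TGCTGAC (MAF), GTTGCCA (RFX) and TGACG (CREB). Myt1 has 3 annotated starts. The window at chr2:181763082-181763381 held none of the motifs, and the window at chr2:181766779-181767078 held the forkhead letters at 2 places. The Rfx6 window is at chr10:51685268-51685567.
Myt1, upstream start: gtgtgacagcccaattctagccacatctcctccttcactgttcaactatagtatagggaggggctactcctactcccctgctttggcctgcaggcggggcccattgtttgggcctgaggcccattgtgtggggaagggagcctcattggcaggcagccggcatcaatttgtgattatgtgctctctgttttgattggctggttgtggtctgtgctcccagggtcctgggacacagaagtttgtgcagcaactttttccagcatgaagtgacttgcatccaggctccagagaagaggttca
Myt1, second start: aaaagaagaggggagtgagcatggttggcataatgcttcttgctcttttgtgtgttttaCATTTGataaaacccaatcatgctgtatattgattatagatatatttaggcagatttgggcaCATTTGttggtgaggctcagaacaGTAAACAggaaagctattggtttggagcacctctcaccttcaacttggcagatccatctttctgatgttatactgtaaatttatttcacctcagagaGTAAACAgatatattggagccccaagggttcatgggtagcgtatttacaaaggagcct
Rfx6: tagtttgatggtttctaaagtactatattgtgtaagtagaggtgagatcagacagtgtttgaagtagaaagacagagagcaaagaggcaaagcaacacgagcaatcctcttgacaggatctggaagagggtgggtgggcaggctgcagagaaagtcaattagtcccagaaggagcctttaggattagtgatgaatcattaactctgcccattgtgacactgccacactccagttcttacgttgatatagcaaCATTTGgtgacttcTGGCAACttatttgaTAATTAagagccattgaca

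The forkhead letters in the Myt1 window were on the opposite strand, so that they read GTAAACA, and stood 105 and 8 bases before the start. They were present in 3.65% of the 32851 mouse promoters of this length, and no other promoter of the 9 genes held them. The Rfx6 window held the homeodomain letters, found in 5.29% of all promoters, and the RFX letters, found in 4.38%. It was the only one of the 14 windows with either. The MAF letters were in 1 Foxa2 window, against 4.67% of all promoters. The E box was in 9 of the 14 windows and in 72.3% of all promoters, and the CREB letters were in 5 of the 14 and in 20.8% of all promoters. No matches overlapped in the windows printed. A match is a run of letters in a window and not a measured binding site.

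Expression levels were compared between genes as RPKM, counts scaled to exonic length and library size, and between libraries as CPM, counts scaled to library size alone, both with TMM factors. Mafa, the bZIP factor of mature beta cells, had the highest level of the group, 204 and 505 RPKM at 25 mM and 199 and 552 RPKM at 2.5 mM. Nkx6-1, a homeodomain factor that holds beta cells apart from alpha cells, followed with 162 and 186 RPKM at 25 mM and 147 and 158 RPKM at 2.5 mM. Pdx1, the homeodomain factor needed for the pancreas to form and for insulin expression, had 97.4 and 84.3 RPKM at 25 mM and 71.7 and 105 RPKM at 2.5 mM. These levels put Mafa first, Nkx6-1 at place 4 and Pdx1 at place 11 by mean RPKM among the 1012 tested genes that the table annotates with a transcription factor family. The lowest Mafa library was above the highest Nkx6-1 library, and the lowest Nkx6-1 library was above the highest Pdx1 library.

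Neurod1, Foxa2, Nkx2-2 and Isl1 formed a middle range. Neurod1, a bHLH activator of insulin genes, had 102 and 80.4 RPKM at 25 mM and 69.5 and 63.9 RPKM at 2.5 mM. Foxa2, the forkhead pioneer factor, had 55.9 and 65.3 RPKM at 25 mM and 53.3 and 62.5 RPKM at 2.5 mM. Nkx2-2, a homeodomain factor that keeps the genes of other islet cells silent, had 35.2 and 47.6 RPKM at 25 mM and 41.5 and 54.7 RPKM at 2.5 mM. Isl1, a LIM-homeodomain factor of all endocrine islet cells, was the steadiest of the 10, its highest library being 1.12 times its lowest. It had 36.4 and 35.7 RPKM at 25 mM and 33.8 and 37.8 RPKM at 2.5 mM. From Pdx1 down to Pax6, the range of each gene over the 4 libraries overlapped that of the next in the order of mean levels. Within libraries, Neurod1 was above Foxa2 and Foxa2 above Nkx2-2 in 4 of 4, Pdx1 above Neurod1 and Nkx2-2 above Isl1 in 3 of 4, and Isl1 above Rfx6 and Rfx6 above Pax6 in 2 of 4.

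Rfx6, Pax6 and Myt1 stood at the lower end by RPKM. Rfx6, a winged-helix factor needed for islet cells to form and for insulin secretion, had 22.6 and 14.0 RPKM at 25 mM and 35.0 and 42.4 RPKM at 2.5 mM. Pax6, a paired-homeodomain factor of all endocrine islet cells, had 25.8 and 21.7 RPKM at 25 mM and 24.3 and 27.1 RPKM at 2.5 mM. The low place of Pax6 depends on its exonic length of 11694 bases, the longest of the 10. By CPM, which is not scaled to length, Pax6 averaged 278 at 25 mM and 301 at 2.5 mM. The averages of Pdx1 were 196 and 191 CPM, and those of Neurod1 248 and 182 CPM. Myt1, a zinc finger factor of endocrine cells, had 6.79 and 4.58 RPKM at 25 mM and 16.3 and 18.6 RPKM at 2.5 mM, and its highest library was below the lowest library of Pax6. Myt1 was at place 171 of the 1012 annotated factors by mean RPKM and had the widest relative range of the 10, a highest library 4.07 times its lowest. The smallest count of any of the 10 genes in a library was 584 reads, for Myt1, at which counting error alone is 4.14%, so that read number was not what limited these comparisons.

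**Figure D1:**
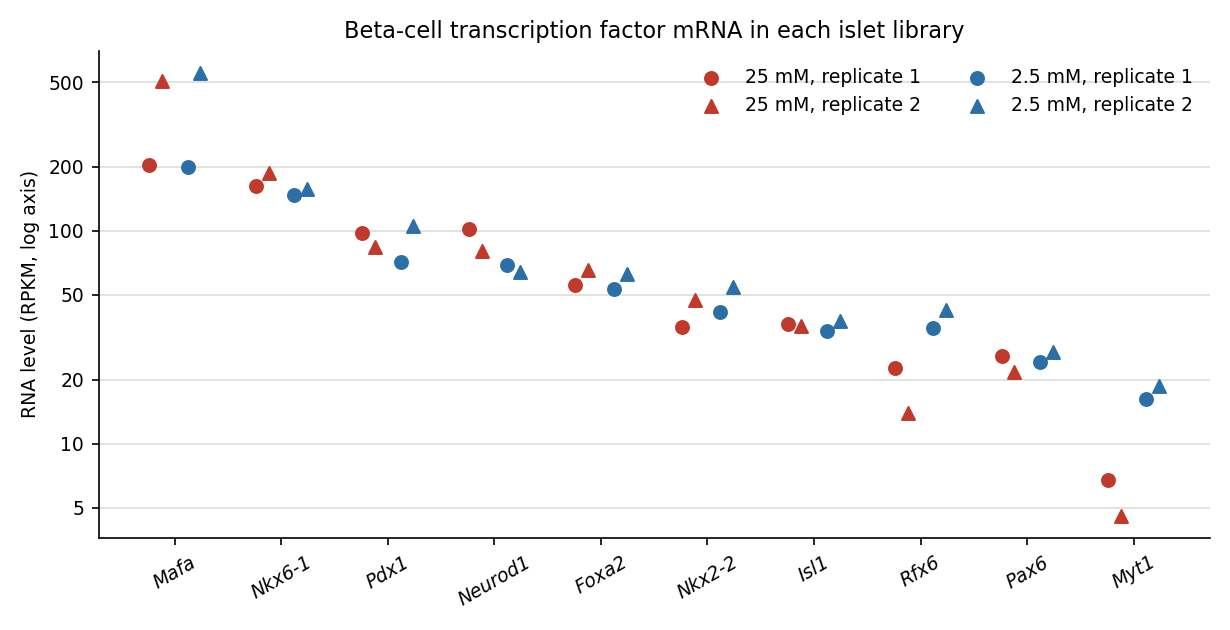
Expression level of the 10 factors in each library, in RPKM on a log axis, with 25 mM libraries left of 2.5 mM libraries for each gene, circles for replicate 1 and triangles for replicate 2. Mafa lies at 204 and 505 RPKM at 25 mM, against 199 and 552 RPKM at 2.5 mM, and the 25 mM points of Rfx6 and Myt1 lie below their 2.5 mM points.

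The comparison of the glucose levels asks which of these genes differ after 2 h at 25 mM against 2.5 mM. Myt1 had 48.8 and 33.0 CPM at 25 mM, against 117 and 134 CPM at 2.5 mM. Both libraries at 25 mM were below both at 2.5 mM, with Myt1 averages of 40.9 ± 11.2 CPM at 25 mM, against 125.7 ± 11.9 CPM at 2.5 mM (SD, n = 2 each). Rfx6 had 90.7 and 56.2 CPM at 25 mM, against 140.4 and 169.8 CPM at 2.5 mM, again with no overlap, with averages of 73.4 ± 24.4 CPM at 25 mM, against 155 ± 20.8 CPM at 2.5 mM (SD, n = 2 each). Groups without overlap were found in 48.3% of all tested genes. In Myt1 and Rfx6 alike the lowest library was 25 mM replicate 2. In bulk RNA, fewer cells of a type and less RNA per cell cannot be told apart.

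In the edgeR quasi-likelihood test without a block, 0 of the 10 genes and 0 of the 15665 genes tested (0%) passed an adjusted p of 0.05. At an unadjusted p under 0.05, 2 of the 10 genes and 1643 of all genes were found. Myt1 had a log2 fold change of -1.62 (SE 0.26, edgeR adjusted p = 0.398) and Rfx6 one of -1.08 (SE 0.28, edgeR adjusted p = 0.425). With the unadjusted p and the fold threshold used in the study (log2 of 0.58), both counted as lower at 25 mM, as did 6.33% of all genes in edgeR.

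The replicate number was then used as a block, since the study text has the islets of every mouse shared out over both glucose levels. That the numbers of the RNA libraries mark such pairs is an inference. The p-values of the blocked fit use a spread shared over genes and not that of each gene. In that fit Myt1 and Rfx6 passed as lower at 25 mM, where 5.01% of all genes passed as lower and 1.85% as higher. Myt1 was 3.12-fold lower at 25 mM (log2 fold change -1.64, SE 0.29, edgeR adjusted p = 3.76e-06) and Rfx6 2.16-fold lower (log2 fold change -1.11, SE 0.29, edgeR adjusted p = 0.0042). DESeq2 without a block, the tool of the study, also gave both as lower, with log2 fold changes of -1.61 for Myt1 (adjusted p = 3.96e-05) and -1.07 for Rfx6 (adjusted p = 0.0361). Of the 11390 genes to which DESeq2 gave an adjusted p, 1.14% passed as lower. The other 8 genes passed in none of these fits.

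Within pairs of libraries with the same number, both genes were lower at 25 mM in each pair, by more in the second. Myt1 was 2.40-fold lower in the first pair and 4.07-fold lower in the second, and Rfx6 1.55-fold and 3.02-fold lower. Without 25 mM replicate 2, edgeR without a block gave Myt1 a log2 fold change of -1.35 (adjusted p = 0.175) and Rfx6 one of -0.76 (adjusted p = 0.408). Without 25 mM replicate 1, it gave -1.93 (adjusted p = 0.0015) and -1.46 (adjusted p = 0.0032), and both genes passed, as did 3253 of all genes. In each of these fits 25 mM is a single library assumed to vary like the 2.5 mM libraries, which alone supply the spread. Across all tested genes, 139 had a lower log2 fold change than Myt1 in the blocked fit and 523 a lower one than Rfx6.

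25 mM replicate 2 stood apart from the other libraries. Its correlation with them across genes was 0.939 to 0.960, against 0.967 to 0.981 among the other 3, and its long genes were low. In the second pair the log2 ratio of 25 mM over 2.5 mM changed by -0.30 for each doubling of exonic length, against -0.06 in the first. Myt1 has 7191 bases of exon and Rfx6 4010, so each was set against the 1000 tested genes nearest to it in length. In the second pair those neighbours had a median log2 ratio of -0.34 around Myt1 and of 0.03 around Rfx6. Relative to its neighbours Myt1 was lower by 1.16 in the first pair and 1.69 in the second on the log2 scale, and Rfx6 by 0.59 and 1.62. With the length trend removed from each library and the replicate block kept, edgeR gave Myt1 a log2 fold change of -1.41 (adjusted p = 2.68e-09) and Rfx6 one of -1.12 (adjusted p = 4.84e-06), with 4.96% of all genes passing as lower.

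**Figure D2:**
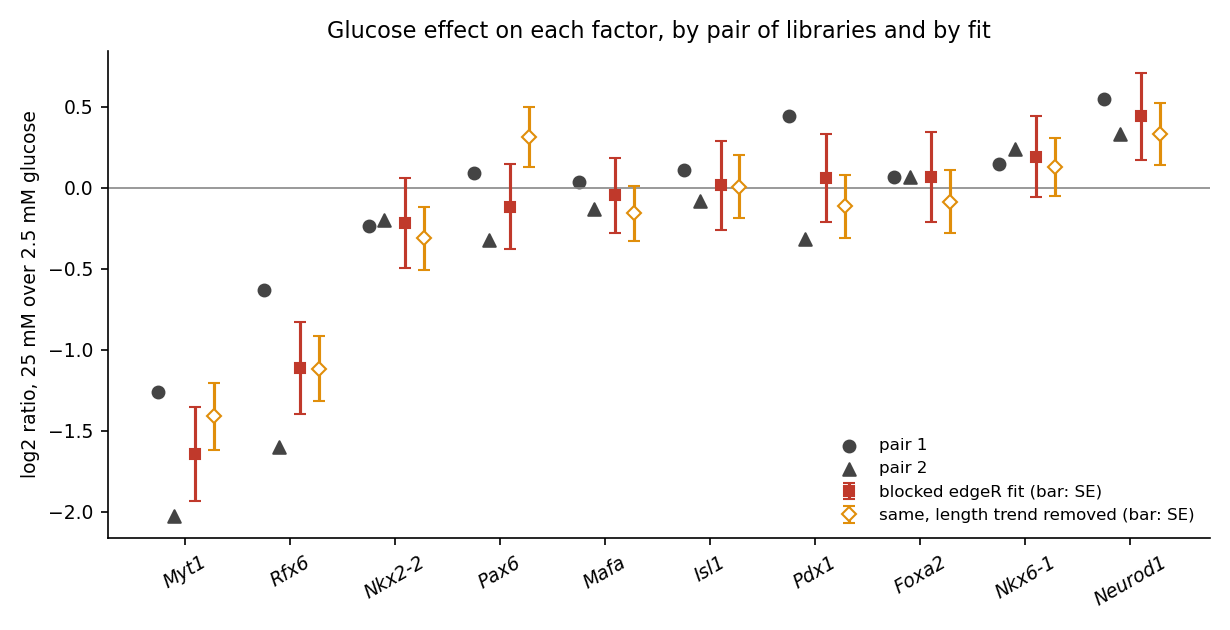
Log2 fold change of each factor at 25 mM over 2.5 mM glucose in edgeR with the replicate block (squares, bars are the SE) and in the same fit with the length trend removed (diamonds), beside the log2 ratio in each pair of same-numbered libraries. Myt1 and Rfx6 lie below 0 in both pairs, whereas Pdx1, Mafa, Isl1 and Pax6 have pairs on both sides of 0.

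Neurod1 and Nkx6-1 were the other members whose groups did not overlap. Neurod1 had 277 and 219.5 CPM at 25 mM, against 189.7 and 174 CPM at 2.5 mM, with averages of 248 ± 40.8 CPM at 25 mM, against 182 ± 10.9 CPM at 2.5 mM (SD, n = 2 each). The edgeR log2 fold change was 0.45 without the block (adjusted p = 0.4996) and 0.44 with it (SE 0.27, adjusted p = 0.382), so that it did not pass in either fit. Nkx6-1 had 509 and 585 CPM at 25 mM, against 461 and 496 CPM at 2.5 mM, with an edgeR log2 fold change of 0.19 (SE 0.20, adjusted p = 0.717). With 2 libraries a group, 48.3% of all tested genes had groups that did not overlap, so the 4 of 10 found here is near the background.

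Pdx1 had 210.1 and 182 CPM at 25 mM, against 155 and 227 CPM at 2.5 mM. Its pairs went opposite ways, with log2 ratios of 0.44 and -0.32, and the edgeR log2 fold change was 0.04 (SE 0.25, adjusted p = 0.966). Pax6 had 302 and 254 CPM at 25 mM, against 284 and 317 CPM at 2.5 mM (log2 fold change -0.11, SE 0.21, edgeR adjusted p = 0.855). Pax6 is the longest of the 10 in exonic bases, 11694, and with the length trend removed and the block kept its value was 0.31 (SE 0.19, edgeR adjusted p = 0.334). No direction can be given for either gene.

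Foxa2, Isl1 and Nkx2-2 passed in none of these fits, and their groups overlapped. Foxa2 had 132 and 155 CPM at 25 mM, against 126 and 148 CPM at 2.5 mM, and Isl1 144 and 141 CPM at 25 mM, against 134 and 149.5 CPM at 2.5 mM. The edgeR log2 fold changes were 0.06 (SE 0.21) for Foxa2 and 0.01 (SE 0.20) for Isl1. Nkx2-2 had 101 and 137 CPM at 25 mM, against 119 and 157 CPM at 2.5 mM, a log2 fold change of -0.22 (SE 0.25, edgeR adjusted p = 0.7502). With 2 libraries a group, a p that misses the threshold does not show that the glucose levels were alike.

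Mafa differed mainly between replicates. It had 558 and 1382 CPM at 25 mM, against 545 and 1513 CPM at 2.5 mM, with averages of 970 ± 583 CPM at 25 mM, against 1029 ± 685 CPM at 2.5 mM (SD, n = 2 each). Both replicate 2 libraries were high and both replicate 1 libraries low, while within each number the glucose levels differed by log2 ratios of 0.03 and -0.13. The edgeR log2 fold change for glucose was -0.09 with an SE of 0.55 without the block and -0.05 with an SE of 0.23 with it (adjusted p = 0.965 and 0.943).

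After this was seen, replicate 2 was compared with replicate 1 in edgeR, with glucose as covariate. Mafa was 2.62-fold higher in replicate 2 (log2 fold change 1.39, SE 0.24, edgeR adjusted p = 7.53e-07), by 2.48-fold at 25 mM and by 2.78-fold at 2.5 mM. In this comparison 0.677% of all tested genes were called higher, and none of the other 9 factors passed, the nearest being Nkx2-2 with a log2 fold change of 0.42 (edgeR adjusted p = 0.606). Without glucose as covariate the Mafa value was again 1.39 but did not pass (edgeR adjusted p = 0.143). Since Mafa was picked for this pattern, the test describes these 4 libraries and is no independent evidence.

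Other genes also differed between the replicate numbers. Of the 8 stromal markers 5 were called lower in replicate 2, against 3.94% of all tested genes, among them the collagen genes Col3a1 and Col1a1 with log2 fold changes of -2.68 and -2.60. The summed stromal level was 499 and 128 CPM at 25 mM, against 531 and 101 CPM at 2.5 mM. Of the 8 endothelial markers 5 were called higher in replicate 2, against 0.677% of all tested genes. Among them was Kdr, the VEGF receptor (log2 fold change 2.33). The endothelial sums were 72.7 and 192 CPM at 25 mM, against 64.4 and 202 CPM at 2.5 mM. Of the 7 beta-cell markers 2 were called higher too, the insulin genes Ins2 and Ins1, with log2 fold changes of 0.93 and 0.78. Of the 9 tested alpha-cell markers 1 was called higher, Ttr, with 0.76. The median log2 fold changes were 0.47 for the beta-cell and 0.42 for the alpha-cell markers. Calls were also made among the 9 macrophage markers (1 higher), the 6 tested duct markers (2 lower) and the 11 tested acinar markers (1 higher, 2 lower). No stromal or endothelial marker was at 0 in any library. The part of these differences in the Mafa values was not tested.

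**Figure D3:**
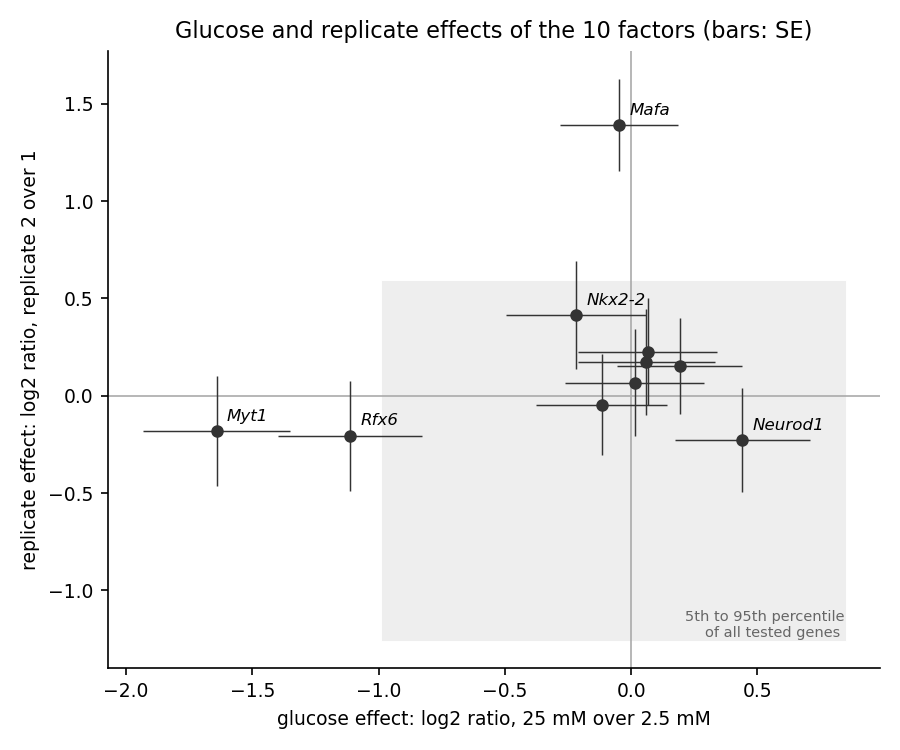
Each factor placed by its log2 fold change for replicate 2 over replicate 1 (vertical axis) and for 25 mM over 2.5 mM glucose (horizontal axis), both from edgeR fits with the other term as covariate, with SEs as bars and the central range of all tested genes shaded. Mafa stands apart along the replicate axis at 1.39, Myt1 and Rfx6 along the glucose axis at -1.64 and -1.11.

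The make-up of the group was described by each gene's share of the summed RPKM of the 10, which does not depend on scaling between libraries. Mafa made up 27.2% and 48.3% at 25 mM, against 28.8% and 49.2% at 2.5 mM. Myt1 made up 0.909% and 0.439% at 25 mM, against 2.36% and 1.66% at 2.5 mM, and Rfx6 3.02% and 1.34% at 25 mM, against 5.06% and 3.77% at 2.5 mM. Thus both genes took a smaller share in each 25 mM library than in either 2.5 mM library. The size of a share depends on exonic length. By CPM in place of RPKM, the mean Pax6 share was 10.4% at 25 mM and 10.8% at 2.5 mM, against 2.77% and 2.97% by RPKM. The mean Myt1 share was 1.55% and 4.50% by CPM, against 0.674% and 2.01% by RPKM. The summed CPM of the 9 genes other than Mafa was 1816 and 1762 at 25 mM, against 1726 and 1973 at 2.5 mM, so the groups overlapped.

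**Figure D4:**
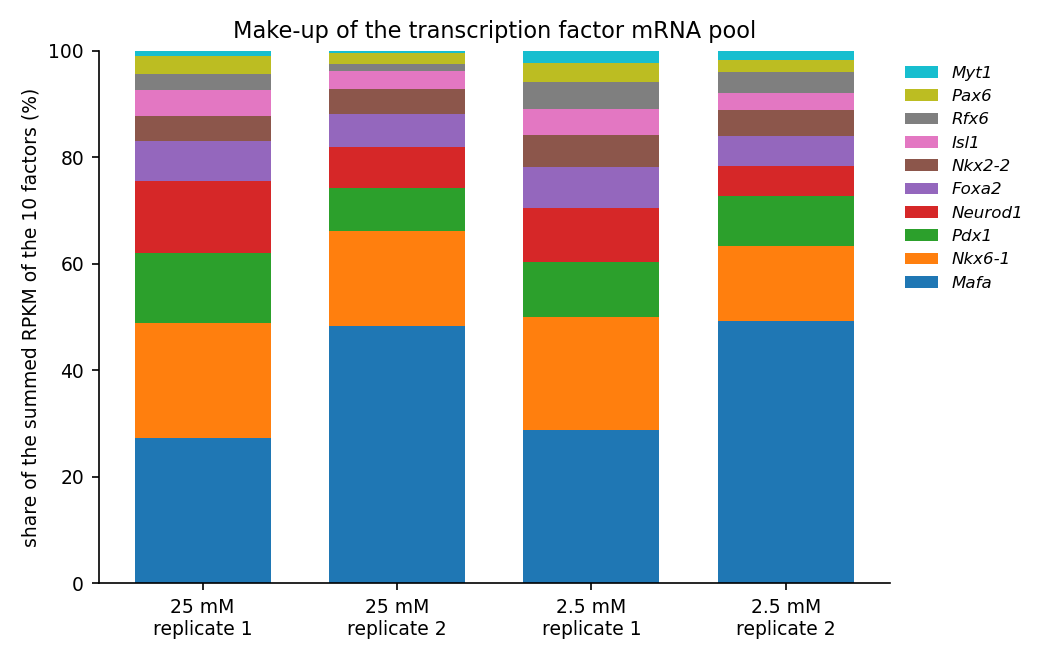
Share of each factor in the summed RPKM of the 10 factors, in percent, as a stacked bar for each library, the 25 mM libraries left of the 2.5 mM libraries. Mafa takes 48.3% and 49.2% in the replicate 2 libraries, against 27.2% and 28.8% in the replicate 1 libraries.

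Ratios to Isl1 restate these values, since Isl1 was taken as the member that varied least in the same 4 libraries. They are no further evidence. The RPKM ratio of Myt1 to Isl1 was 0.187 and 0.128 at 25 mM, against 0.482 and 0.494 at 2.5 mM, and that of Rfx6 to Isl1 was 0.621 and 0.392 at 25 mM, against 1.04 and 1.12 at 2.5 mM. The ratio of Myt1 to Rfx6 was 0.3004 and 0.327 at 25 mM, against 0.466 and 0.440 at 2.5 mM, so Myt1 was lower relative to Rfx6 in both 25 mM libraries. The genes nearest to Myt1 in their pattern over the 4 libraries, by Euclidean distance of gene-centred log2 CPM, were Pde7b (0.0841), Fzd4 (0.141) and Anks1b (0.174). Those nearest to Isl1, whose pattern is almost flat (SD of log2 CPM 0.07), were Maco1 (0.0173), Rnf4 (0.0189) and Sgsm2 (0.0241).

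Markers of the islet and other cells were read beside the Myt1 and Rfx6 values. Beta-cell markers summed to 87260 and 199707 CPM at 25 mM, against 80840 and 109833 CPM at 2.5 mM, and alpha-cell markers to 25408 and 41067 CPM at 25 mM, against 29795 and 33064 CPM at 2.5 mM, with the groups overlapping in both. The delta-cell sums were 1652 and 2505 CPM at 25 mM, against 1481 and 1433 CPM at 2.5 mM, and did not overlap. Most of these sums was the hormone gene Sst, with 1485 and 2187 CPM at 25 mM, against 1312 and 1189 CPM at 2.5 mM. Hhex, Ghsr, Rbp4 and F5 overlapped between the groups, and the median log2 fold change of the list was -0.08 in the blocked fit. The PP, acinar, duct, endothelial, macrophage and stromal sums overlapped between the groups. Acinar sums were 698 and 348 CPM at 25 mM, against 313 and 379 CPM at 2.5 mM, and PP sums were 2086 and 3757 CPM at 25 mM, against 1746 and 2239 CPM at 2.5 mM. None of the alpha, delta, PP, acinar, duct, endothelial, macrophage or stromal markers passed for glucose in the blocked edgeR fit. Of all these markers, the acinar Amy2a5 and the duct Cftr alone were at 0 in some library. The part of cell composition in the Myt1 and Rfx6 values was not tested.

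Other transcription factors of the islet were examined as a list of 34 genes, of which 27 had enough reads. Pax4, Foxa1, Lmx1a, Onecut1, Isl2, Nkx6-3 and Neurod2 did not. In the blocked edgeR fit 6 of the 27 were called lower at 25 mM, 0 higher and 21 neither (5.01% lower and 1.85% higher over all tested genes), with a median log2 fold change of -0.38, against -0.01 over all tested genes. Zbtb20, a zinc finger repressor, had 70.3 and 21.6 CPM at 25 mM, against 104 and 134 CPM at 2.5 mM (log2 fold change -1.58, SE 0.30, edgeR adjusted p = 3.2e-05). Peg3, an imprinted zinc finger gene, had 1076 and 516 CPM at 25 mM, against 1568 and 1795 CPM at 2.5 mM (log2 fold change -1.17). Prox1, a homeodomain factor of the developing pancreas, had 69.5 and 38.9 CPM at 25 mM, against 105 and 117 CPM at 2.5 mM (log2 fold change -1.09). In these 3 genes 25 mM replicate 2 was the lowest library, and the log2 ratios in the first and second pair were -0.56 and -2.63 for Zbtb20, -0.54 and -1.80 for Peg3, and -0.60 and -1.59 for Prox1. DESeq2 called 0 of the 27 in either direction. In edgeR without a block 6 of the 27 were lower at an unadjusted p under 0.05, as were 1045 of all 15665 tested genes. With the length trend removed and the block kept, edgeR called 6 lower (4.96% over all genes). The median exonic length of the list was 6208 bases, with 30730 for Zbtb20, 13616 for Peg3 and 8390 for Prox1. With the length trend removed and the block kept, their log2 fold changes were -0.85, -0.68 and -0.80. Without 25 mM replicate 2, edgeR without a block gave these 3 genes -0.75, -0.63 and -0.67, against -1.37, -1.08 and -1.04 with all libraries.

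Among all 1012 genes annotated as transcription factors, 12.5% were called lower and 1.48% higher in the blocked edgeR fit, with a median log2 fold change of -0.34. With the length trend removed as well, 13.3% were called lower and the median was -0.23. In the blocked fit 13 of them had a lower log2 fold change than Myt1 and 73 a lower one than Rfx6. Lower values at 25 mM were thus shared by many annotated factors beside Myt1 and Rfx6.

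Partners and cofactors through which these factors act formed a list of 18 genes, all tested. In the blocked edgeR fit 5 were called lower, 0 higher and 13 neither (5.01% lower and 1.85% higher over all tested genes), with a median log2 fold change of -0.39. Tle3, a Groucho corepressor, had 154 and 107 CPM at 25 mM, against 303 and 294 CPM at 2.5 mM (log2 fold change -1.22, SE 0.27, edgeR adjusted p = 5.8e-04). Ep300, a histone acetyltransferase, had 119 and 43.5 CPM at 25 mM, against 140.2 and 177 CPM at 2.5 mM, and Ncoa6, a coactivator, had 86.1 and 49.4 CPM at 25 mM, against 130.4 and 147 CPM at 2.5 mM. Their log2 fold changes were -1.12 and -1.08. The log2 ratios in the first and second pair were -0.98 and -1.47 for Tle3, -0.23 and -2.02 for Ep300, and -0.60 and -1.57 for Ncoa6. Without 25 mM replicate 2, edgeR without a block gave -0.40 for Ep300 and -0.68 for Ncoa6, against -0.96 and -1.03 with all libraries, and called neither in either case. DESeq2 called Tle3 alone. These are long transcripts, with a median of 10278.5 exonic bases, and with the length trend removed and the block kept 3 were called lower (4.96% over all genes) and the median was -0.04.

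Genes known as targets of these factors in beta cells made a list of 24, all tested. In the blocked edgeR fit 3 were called higher at 25 mM, 1 lower and 20 neither (1.85% higher and 5.01% lower over all tested genes), with a median log2 fold change of 0.12. G6pc2, the islet glucose-6-phosphatase, had 1364 and 2052 CPM at 25 mM, against 715 and 770 CPM at 2.5 mM, a log2 fold change of 1.17 (SE 0.23, edgeR adjusted p = 7.0e-05), and DESeq2 called it too, with 0.474% of genes called higher there. Ins1 had 23634 and 52998 CPM at 25 mM, against 21721 and 28601 CPM at 2.5 mM (log2 fold change 0.51), and Ins2 had 47832 and 121194 CPM at 25 mM, against 46126 and 65926 CPM at 2.5 mM (log2 fold change 0.47). The insulin differences lay mainly in the second pair, with log2 ratios in the first and second pair of 0.12 and 0.89 for Ins1 and of 0.05 and 0.88 for Ins2. In edgeR without a block, which called neither, the log2 fold changes were 0.61 and 0.59 with all libraries and -0.08 and -0.22 without 25 mM replicate 2. Ffar1, the receptor for long-chain fatty acids, had 145 and 104 CPM at 25 mM, against 175 and 267 CPM at 2.5 mM (log2 fold change -0.82, with -0.27 in the first pair and -1.37 in the second). With the length trend removed and the block kept, G6pc2 and the glucose transporter Slc2a2 were called higher, against 3.75% of all genes. Ffar1 and the potassium channel subunit Kcnj11 were called lower, against 4.96% of all genes, and neither insulin gene passed. The log2 ratios of Slc2a2 were 0.81 in the first pair and 0.005 in the second. It did not pass with the block alone (edgeR adjusted p = 0.41).

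**Figure D5:**
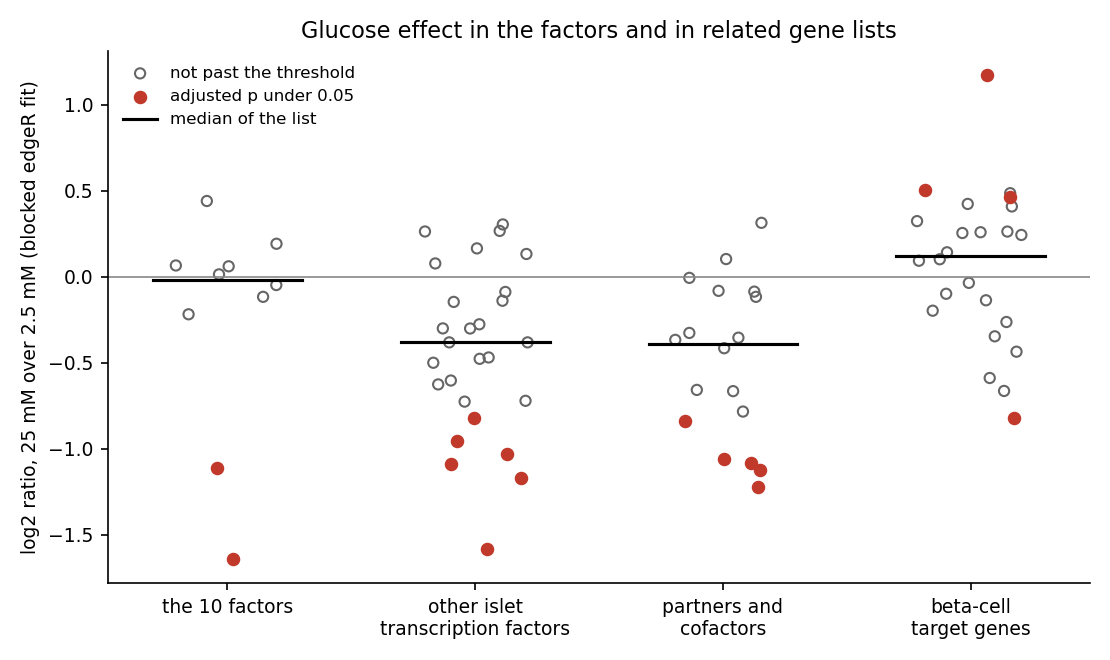
Log2 fold change at 25 mM over 2.5 mM glucose in edgeR with the replicate block for each tested gene of the 10 factors, the other islet factors, the partners and cofactors and the target genes, filled where the adjusted p was under 0.05, with list medians as bars. The medians are -0.02, -0.38, -0.39 and 0.12.

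For Mafa, Myt1 and Rfx6, the genes the results turn on, the table gives Mafa (ENSMUSG00000047591) on the minus strand of chromosome 15 from 75617339 to 75620077, with 2739 exonic bases. It gives Myt1 (ENSMUSG00000010505) on the plus strand of chromosome 2 from 181405125 to 181469590 and Rfx6 (ENSMUSG00000019900) on the plus strand of chromosome 10 from 51553852 to 51606528. No build can be attached to these positions, since none of the 10 genes had the same start as in GENCODE vM21 on GRCm38. No other gene in the table overlaps these 3, nor Nkx6-1, Isl1 or Foxa2. Overlapping genes were found for Neurod1 (Cerkl, same strand, up to 13.5% of the Neurod1 count), Nkx2-2 (6430503K07Rik, up to 5.99%, and Nkx2-2os), Pdx1 (Plut, antisense, up to 5.65%) and Pax6 (Pax6os1, up to 3.80%). Overlap was taken from gene start to gene end and not from exons, and each partner had counts of its own. The use of strand in counting is not given in the sources used here. Whether reads of a partner were counted for the factor was not tested. For Cerkl, on the same strand as Neurod1, strand would not separate such reads.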

How the data were processed

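Poly(A) RNA libraries from mouse islets were compared, 2 at 25 mM and 2 at 2.5 mM glucose. Per the labels and the study's methods, the authors used fastp to trim the reads, HISAT2 2.2.1 to align them and featureCounts to assign them to genes, and the deposited values are raw counts per gene. The labels name mm10, but only 1485 of 52073 shared genes start where GENCODE vM21 has them. Total counts were 17279505 to 19136068 per library.

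The main test was edgeR's two-sided quasi-likelihood test with glucose as the single term (edgeR 4.0.16, R 4.3.3), after filtering with filterByExpr at its defaults and TMM scaling. p-values were adjusted by Benjamini-Hochberg over all 15665 tested genes, the threshold was 0.05, and the SE is the size of the log2 fold change over the square root of F. CPM and RPKM used TMM-scaled library sizes and, for RPKM, the deposited exonic length. Likeness used log2 CPM with a prior count of 2. Alternatives were the replicate number as a block, DESeq2 1.42.0, limma-voom (limma 3.58.1), no composition factors, no low-count filter, removal of the trend with exonic length (loess, span 0.5), the study's thresholds and leaving out each library. Scripts were tested on simulated data with less spread between libraries than these and no length trend, which gives no error rate for these libraries.

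Same-numbered libraries deviated together (r = 0.409 over 15665 genes, after group means were subtracted; genes are not independent replicates). With 2 pairs, swapping the numbers only turns the sign, and no source states that RNA library numbers are pairs. p-values measure the spread between these libraries alone. In the blocked edgeR fit, also used for replicate 2 over replicate 1, the prior degrees of freedom were infinite. Its p-values and SEs thus rest on a spread shared over genes, with no weight on the spread of each gene. Named from the other lists were up to 3 genes in each direction with the largest change among those past the threshold in the blocked or DESeq2 fit. The markers in the replicate comparison were named after their values were seen. The 10 genes, the lists and the tests were chosen with earlier results of these data known.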

Additional observations from a re-analysis of the deposited data

How the results depend on the processing

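Calls depended on the model. edgeR without a block called 0 genes and 0 of the 10 factors, and so did the fits without composition factors and with limma-voom. All genes called numbered 597 without the low-count filter, 1075 with the replicate block, 184 in DESeq2, 255 in DESeq2 with the block, 970 in limma-voom with the block, 12 with the length trend removed, 1364 with that and the block, and 1559 at the study's thresholds. Of the factors, 2 (Myt1 and Rfx6) were called in each of these except with the length trend removed alone, which called 0. Leaving out 1 library, with the lone library of that group assumed to vary like the other group, gave 5 to 3253 genes and 0 to 2 factors. Both were called without 25 mM replicate 1, Myt1 alone without 2.5 mM replicate 1 (edgeR adjusted p = 0.0495), and neither without 25 mM replicate 2 or 2.5 mM replicate 2. Over 13 alternatives Myt1 ranged over log2 fold changes of -1.93 to -1.35 and passed in 8, and Rfx6 over -1.46 to -0.76 and passed in 7. The cause of these differences was not tested.

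Glucose directions turned in factors that passed in no glucose fit. With the length trend removed, without and with the block, log2 fold changes were -0.15 and -0.12 for Pdx1, -0.098 and -0.086 for Foxa2, and 0.32 and 0.31 for Pax6. Isl1 was -0.00035 without composition factors and -0.0021 without the filter. Leaving out 1 library gave -0.88 to 0.90 for Mafa, -0.22 to 0.39 for Pdx1, -0.048 to 0.24 for Foxa2, -0.44 to 0.054 for Nkx2-2, -0.070 to 0.15 for Isl1 and -0.24 to 0.019 for Pax6. For replicate 2 over replicate 1, Pax6 was 0.0056 in DESeq2 and 0.27 after removal of the length trend, and Myt1 was 0.0091 without the glucose term and 0.031 after that removal. Mafa kept its direction there, and its adjusted p was 9.66e-06 in DESeq2, 9.26e-07 in limma-voom and 3.18e-14 in edgeR with the length trend removed. With 2 libraries a group, the spread between libraries and not read number limits these tests.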
